A study of Rattus norvegicus with 14 samples.

Results

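The genes described here are the chemokines Ccl2, Ccl20, Cxcl1, Cxcl16 and Cx3cl1, the cytokines Csf1, Il6, Il18 and Lif, and the cytokine receptor chain Il12rb1. They are the 10 listed rows, chosen by name, of a table of raw read counts for 16816 genes. RNA was sequenced from PCCL3 cells, a differentiated rat thyroid follicular cell line, of which PPFP cells stably expressed the human PAX8-PPARG fusion protein with a 3xMyc tag and EV cells carried the empty vector. Each cell line was cultured for 16 hours with 1 μM pioglitazone, an agonist of PPARG, or with DMSO vehicle, so that there were 4 groups of 3 libraries and 12 libraries in all. Each arm was thus a single transfected line of the same parent cells with no leukocytes in the culture, and differences between PPFP and EV cells could not be told apart from other differences between the transfected lines. The study describes the 3 libraries of a group as independent experiments, and the p-values below measure the spread between those libraries in 1 line.

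Total counts on genes were between 23724703 and 35240176 per library. The 10 thyrocyte markers, among them thyroglobulin, summed to between 10010 and 14114 CPM in every library, where CPM are counts scaled to a common library size with TMM factors. The defining markers of leukocytes (Ptprc, Itgam, Lyz2 and Tyrobp), fibroblasts (Col1a2, Pdgfrb, Dcn and Lum) and endothelium (Pecam1 and Cdh5) had at most 3 counts in each of the 12 libraries, a level treated throughout as the floor. Over the full lists, 6 of 11 leukocyte, 4 of 6 fibroblast and 2 of 4 endothelial markers were at the floor, and the summed levels were 4.62 to 7.16, 20.4 to 34.5 and 0.215 to 1.48 CPM. Pdgfra (group means of 21.2 to 29.4 CPM) made up most of the fibroblast sum and Cd14 (3.93 to 5.74 CPM) most of the leukocyte sum, and Col1a1 was at 1.73 to 2.51 CPM, Cd68 at 0.529 to 1.21 CPM and Vwf at 0.414 to 1.08 CPM. Without pioglitazone Cd68 (log2 0.86 ± 0.30, adjusted p = 0.048) and Vwf (log2 1.17 ± 0.38, adjusted p = 0.038) were higher in PPFP than in EV cells, which made 1 of 2 leukocyte and 1 of 1 endothelial markers tested, and neither of the 2 fibroblast markers passed. With pioglitazone Cd68 (log2 1.18 ± 0.31) and Pdgfra (log2 0.46 ± 0.12) were higher and Cd14 lower (log2 -0.44 ± 0.15) in PPFP cells. None of these 5 passed with pioglitazone in PPFP cells in the unpaired fit, where 7.63% of all genes rose and 7.13% fell. With the replicate number as a block 1 rose and 2 fell, where 27.7% and 23.9% of all genes did. The part of these markers in the results below was not tested. The thyrocyte sum of PPFP cells with pioglitazone was between 10010 and 10198 CPM, below the range of 13344 to 14054 CPM in PPFP cells without it, and the part of this shift in the results below was not tested. Thyroglobulin made up most of this sum, with group means of 8436 to 11716 CPM. Without pioglitazone 2 of the 9 thyrocyte markers tested were higher and 4 lower in PPFP than in EV cells, among them Foxe1 (means of 131 against 877 CPM) and Slc5a5 (336 against 1129 CPM), where 22.0% of all genes tested were higher and 23.1% lower. With pioglitazone in PPFP cells 1 of 10 was higher and 5 were lower, where 7.63% and 7.13% of all genes were (2 and 7 with the replicate block, beside 27.7% and 23.9%), and the part of these changes in the results below was not tested either. Fewer cells expressing a gene and less RNA per cell cannot be told apart in bulk RNA. The libraries numbered 2 and 3 of PPFP cells with pioglitazone differed from each other by a chi-square of 1.70 per gene, against 17.8 to 113 for the other 11 replicate pairs. They were kept as separate libraries, as labelled, and were counted as 1 library in an added alternative. They differed by more than counting noise, but this does not show that they came from separate experiments. The p-values that use this group treat them as separate, and whether they were could not be tested.

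Chemokines are small secreted proteins that attract leukocytes through receptors coupled to G proteins. Cxcl16 and Cx3cl1 are unusual among them because they are made as membrane-anchored proteins and released by the metalloproteases Adam10 and Adam17. Csf1 supports the survival of macrophages through the receptor Csf1r, Lif and Il6 signal through receptors that share the chain Il6st (gp130), and Il12rb1 is the receptor chain shared by interleukin 12 and interleukin 23. Many of these genes are classical targets of NF-kB, and PPARG agonists are known for dampening such genes in macrophages.

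Promoter sequence was at hand for 7 of the 10 genes, from the RefSeq promoters of the rat build GRCr8, and Ccl2, Csf1 and Lif were not among them. The 250 bases before the annotated start are printed 5′ to 3′ for the pair of genes with a matched promoter that fell with pioglitazone in PPFP cells (Cxcl16 and Il12rb1) and for a pair of classical NF-kB targets that had few or no reads (Cxcl1 and Il6). Capitals mark every match to the NF-kB consensus, AGGTCA (the core motif of nuclear receptors), TTCNNNGAA (the STAT motif) or TATAAA, searched on both strands. All 4 windows lie on the minus strand, at chr10:55669951-55670200 for Cxcl16, chr16:18666825-18667074 for Il12rb1, chr14:17479322-17479571 for Cxcl1 and chr4:5894576-5894825 for Il6.
Cxcl16: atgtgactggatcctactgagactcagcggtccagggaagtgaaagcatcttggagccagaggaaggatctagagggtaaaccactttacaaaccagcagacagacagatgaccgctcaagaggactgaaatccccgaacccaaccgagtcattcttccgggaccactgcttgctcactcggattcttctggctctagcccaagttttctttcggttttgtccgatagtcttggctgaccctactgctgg
Il12rb1: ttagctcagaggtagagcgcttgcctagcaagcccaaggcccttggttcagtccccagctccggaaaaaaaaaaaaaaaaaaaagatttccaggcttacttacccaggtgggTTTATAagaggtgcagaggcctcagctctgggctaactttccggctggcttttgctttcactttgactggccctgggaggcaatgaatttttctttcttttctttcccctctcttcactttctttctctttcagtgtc
Cxcl1: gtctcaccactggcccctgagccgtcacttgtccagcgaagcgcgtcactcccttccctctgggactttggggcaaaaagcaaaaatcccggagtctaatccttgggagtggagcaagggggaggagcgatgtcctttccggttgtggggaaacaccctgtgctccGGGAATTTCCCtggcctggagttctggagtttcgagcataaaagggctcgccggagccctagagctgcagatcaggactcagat
Il6: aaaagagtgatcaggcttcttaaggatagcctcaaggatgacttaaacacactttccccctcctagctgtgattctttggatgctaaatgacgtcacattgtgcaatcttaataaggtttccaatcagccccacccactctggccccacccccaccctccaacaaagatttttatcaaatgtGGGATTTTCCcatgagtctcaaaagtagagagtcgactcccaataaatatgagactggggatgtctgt

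None of the 4 motifs was found in the Cxcl16 window, and the Il12rb1 window held only TATAAA on the opposite strand, beginning 138 bases before the start. The Cxcl1 window held a pair of overlapping NF-kB matches, at 84 and 83 bases before the start, and the Il6 window held a match at 68 bases. Ccl20 had an NF-kB match at 89 bases and AGGTCA on the opposite strand at 174 bases, Cx3cl1 had TATAAA at 78 bases, and the Il18 window had no match. Over 33469 promoters of the same length, 3.54% held the NF-kB consensus, 14.1% AGGTCA, 7.67% the STAT motif and 12.9% TATAAA. A match is a match of letters only, and a window without one says nothing about binding elsewhere.

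Of the 10 genes, 4 had almost no reads in these thyrocytes. Ccl20, which attracts cells bearing Ccr6, had 0 counts in all 12 libraries, and 0 counts allow a level of up to 0.0810 to 0.127 CPM, the value of 3 counts, depending on the library. Il18, a cytokine that caspase-1 matures, had 1 count in a single library of EV cells without pioglitazone and 0 in the other 11. Ccl2, the main attractant of monocytes, had 4, 1 and 0 counts in EV cells without pioglitazone and at most 1 count in every other library, and it had 0 in all 3 libraries of PPFP cells with pioglitazone. Il6 had 2, 4 and 1 counts in EV cells without pioglitazone and 5, 2 and 1 with it. In PPFP cells the Il6 counts were 0, 3 and 0 without and 0, 3 and 2 with pioglitazone. These counts overlapped between groups, none of the 4 genes passed the filter on low counts in any comparison, and no difference was detectable at this depth.

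**Figure D1:**
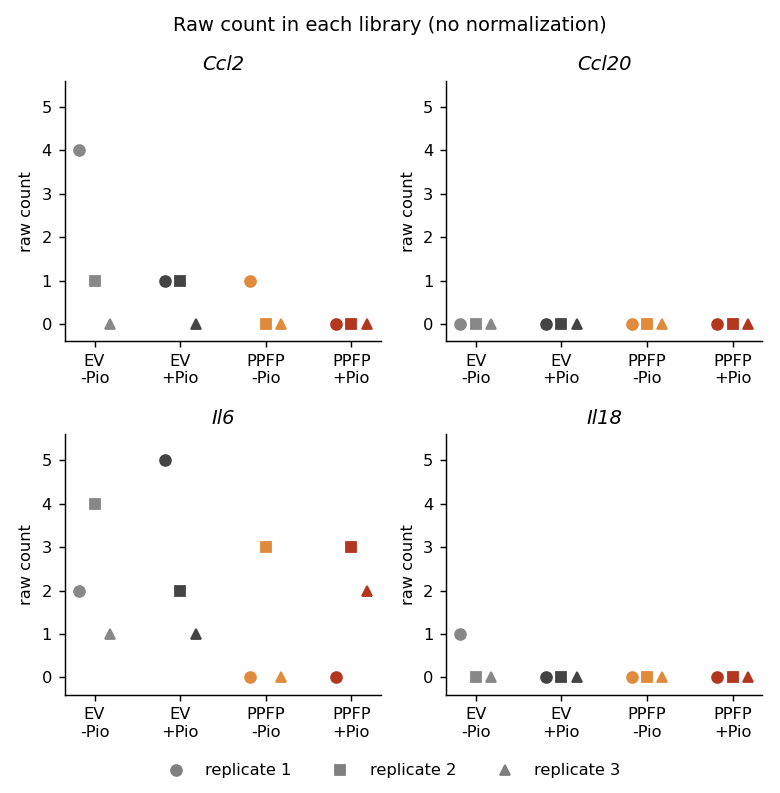
Raw counts (y axis) of Ccl2, Ccl20, Il6 and Il18 in each library of EV and PPFP cells without (-Pio) and with (+Pio) pioglitazone, with 1 point per library and the marker shape giving the replicate number. No library exceeds 5 counts, and Ccl20 is at 0 in all 12.

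Cxcl1, the neutrophil attractant of the same NF-kB-driven class, was present at a trace. Its counts were 16, 8 and 4 in EV cells without pioglitazone and 16, 20 and 5 with it. In PPFP cells they were 5, 7 and 10 without and 11, 10 and 14 with pioglitazone. The 4 groups overlapped, with means between 0.288 and 0.418 CPM, and no comparison of it passed. Its neighbours in the chemokine cluster, Cxcl2 and Cxcl3, had 0 counts in all 12 libraries.

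The other 5 genes, Cx3cl1, Cxcl16, Csf1, Lif and Il12rb1, passed the filter in every comparison. Cx3cl1, Cxcl16 and Csf1 had at least 890 counts in each library, Lif had between 65 and 244, and Il12rb1 had between 12 and 75. Gene lengths were not at hand, so the CPM of different genes were not compared.

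**Figure D2:**
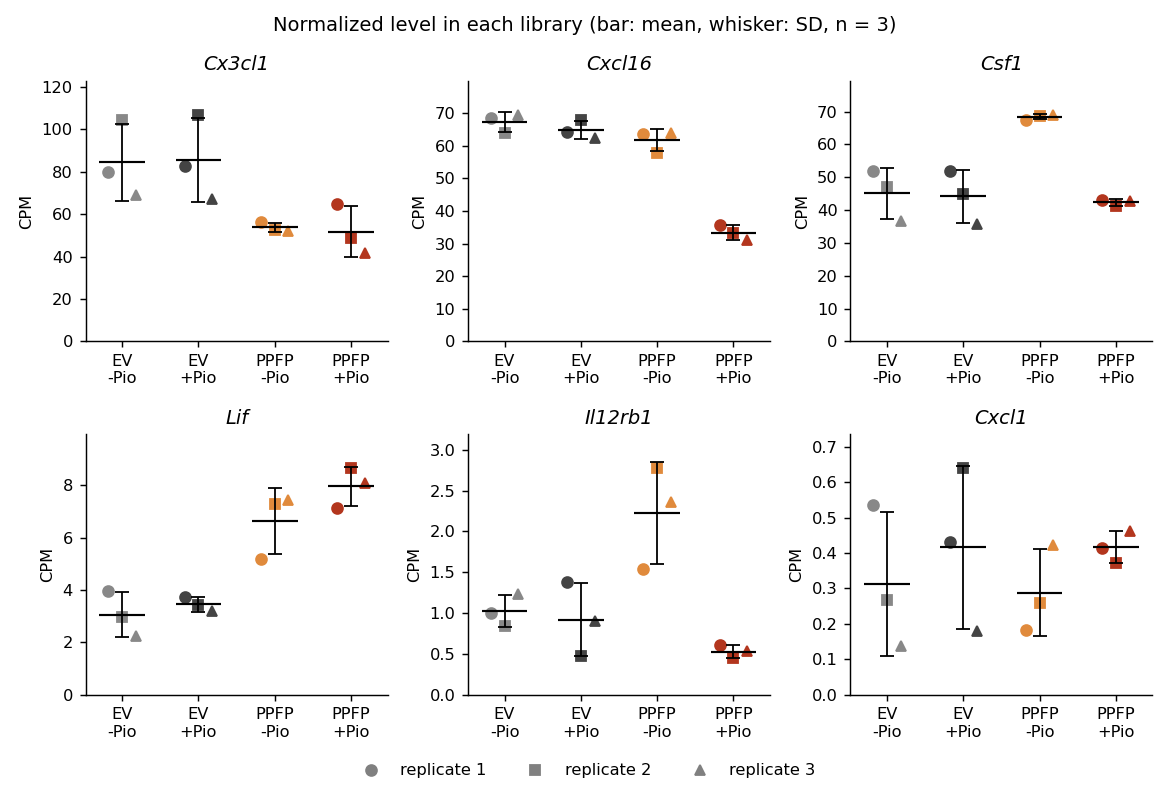
CPM (y axis, from 0) of the 6 genes that passed the filter in at least 1 comparison, with 1 point per library, a bar at the mean and whiskers for the SD (n = 3). Cxcl16 stands apart only in PPFP cells with pioglitazone, and Csf1 and Il12rb1 are highest in PPFP cells without it.

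To ask how the genes differed with PPFP alone, PPFP cells were compared with EV cells without pioglitazone. Csf1, Lif and Il12rb1 were higher in PPFP cells, Cx3cl1 was lower, and Cxcl16 did not pass the test. Of the 5 genes tested, 3 were thus higher and 1 lower at an adjusted p under 0.05, where 22.0% of all 10264 genes tested were higher and 23.1% lower. A fold change above 2 was reached by Lif and Il12rb1, as by 14.6% of all genes.

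Csf1 was at 51.8, 46.9 and 36.6 CPM in EV cells and at 67.5, 68.6 and 68.9 CPM in PPFP cells. All 3 PPFP libraries lay above all 3 EV libraries, and they were closer to each other (SD 0.75) than the EV libraries were (SD 7.75). The log2 fold change was 0.62 ± 0.14 (SE, n = 3 per group, edgeR quasi-likelihood test, adjusted p = 0.0086).

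Lif, a cytokine of the Il6 family, was at 3.95, 2.98 and 2.23 CPM in EV cells and at 5.17, 7.28 and 7.43 CPM in PPFP cells. The groups did not overlap, and replicate 1 was the lowest of the PPFP libraries. The log2 fold change was 1.13 ± 0.26 (adjusted p = 0.0093).

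Il12rb1 was at 1.00, 0.837 and 1.23 CPM in EV cells and at 1.54, 2.77 and 2.36 CPM in PPFP cells. Again each PPFP library was above each EV library. The log2 fold change was 1.14 ± 0.29 (adjusted p = 0.014), but it missed the threshold without replicate 2 (log2 0.96, adjusted p = 0.056) or replicate 3 (log2 1.10, adjusted p = 0.052) of the PPFP cells.

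Cx3cl1, the ligand of Cx3cr1 on monocytes and lymphocytes, was at 79.7, 104 and 69.0 CPM in EV cells and at 56.1, 52.7 and 52.3 CPM in PPFP cells. The highest PPFP library remained under the lowest EV library. The fall was 1.55-fold (log2 -0.63 ± 0.16, adjusted p = 0.013).

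Cxcl16, the ligand of Cxcr6 and a scavenger receptor for oxidised lipoprotein, was at 68.5, 63.8 and 69.4 CPM in EV cells and at 63.5, 57.8 and 64.0 CPM in PPFP cells. These ranges overlapped. The log2 difference was -0.10, with a 95% interval from -0.29 to 0.09 and an adjusted p of 0.34.

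**Figure D3:**
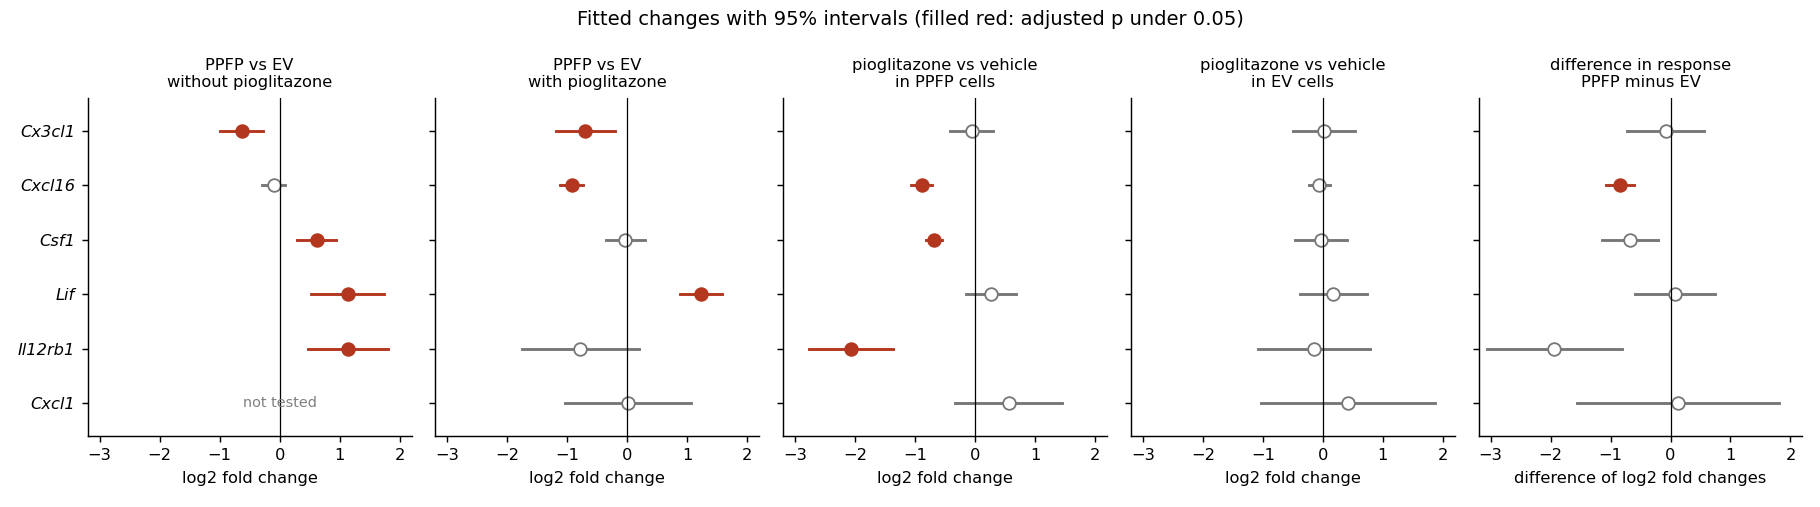
Fitted log2 fold changes (x axis) with 95% intervals for the 6 tested genes in the 4 comparisons of groups and, in the last panel, the difference in pioglitazone response between PPFP and EV cells; filled red points passed at an adjusted p under 0.05. Cxcl16 is the only gene past the threshold in the last panel, and no gene passes in EV cells.

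The effect of pioglitazone was then examined within each cell line. In PPFP cells Cxcl16, Csf1 and Il12rb1 fell. Of the 6 genes tested, 0 were higher and 3 lower in the fit without pairing, where 7.63% of all 10064 genes were higher and 7.13% lower. With the replicate number as a block 1 (Lif) was higher and the same 3 were lower, where 27.7% of all genes were higher and 23.9% lower, 5198 genes in place of 1486. Il12rb1 alone of the 6 had a fold change above 2, which 2.42% of all genes had.

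Cxcl16 was at 35.8, 33.2 and 31.1 CPM in PPFP cells with pioglitazone, against the 63.5, 57.8 and 64.0 CPM without it given above. The highest treated library was below the lowest untreated library of either cell line. The fall was 1.85-fold (log2 -0.89 ± 0.073, adjusted p = 0.0010), and by replicate number it was 43.6%, 42.6% and 51.5%.

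Csf1 was at 43.1, 41.1 and 42.9 CPM in PPFP cells with pioglitazone, against 67.5 to 68.9 CPM without it. The treated libraries lay within the range of the EV cells, 35.8 to 51.9 CPM over both treatments. The fall was 1.61-fold (log2 -0.69 ± 0.053, adjusted p = 0.00083), and by replicate number it was 36.2%, 40.0% and 37.8%.

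Il12rb1 was at 0.605, 0.448 and 0.530 CPM in PPFP cells with pioglitazone, from 16, 12 and 16 counts. Without pioglitazone it had 42, 75 and 56 counts, so the groups were well separated despite the low level. The fall was 4.18-fold (log2 -2.06 ± 0.29, adjusted p = 0.0062), and by replicate number it was 60.8%, 83.9% and 77.6%.

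Lif was at 7.14, 8.65 and 8.08 CPM in PPFP cells with pioglitazone. These values overlapped those without it, although each was above its own replicate number, by 38.1%, 18.8% and 8.77%. The log2 difference of 0.27 had a 95% interval from -0.15 to 0.69 and did not pass (adjusted p = 0.38), but it passed with the replicate number as a block (log2 0.27, adjusted p = 0.024). Without replicate 1 of the vehicle libraries it was log2 0.09 (adjusted p = 0.61).

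Cx3cl1 was at 64.9, 48.8 and 41.5 CPM in PPFP cells with pioglitazone, on either side of the 52.3 to 56.1 CPM without it. Its log2 difference of -0.05 had a 95% interval from -0.41 to 0.31 (adjusted p = 0.86). Cxcl1 differed by log2 0.56, with a 95% interval from -0.34 to 1.46 (adjusted p = 0.39).

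In EV cells, which do not carry the fusion protein, none of the 6 genes passed with versus without pioglitazone, where 0% of all 10146 genes passed with edgeR. Over all genes 16 had an unadjusted p under 0.05, none of them among the 6, and neither DESeq2 nor the exact test called any gene. That is far fewer than a threshold of 0.05 gives by chance, and these fits ignored the pairing by replicate number. The lack of calls in them therefore does not show that there was no response. None of the 6 genes passed with the replicate number as a block either. Cxcl16 was at 64.2, 67.9 and 62.3 CPM with pioglitazone, overlapping the values without it, and its log2 difference of -0.06 had a 95% interval from -0.23 to 0.12.

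Csf1 was at 51.9, 44.9 and 35.8 CPM in EV cells with pioglitazone. Each of these values was within 4.33% of the vehicle library of the same number, while the 3 numbers differed from each other, so that the unpaired interval of the log2 difference was wide (-0.03, from -0.47 to 0.41). Il12rb1 was at 1.38, 0.480 and 0.897 CPM, on either side of the values without pioglitazone (log2 -0.14, 95% interval from -1.08 to 0.79). Lif (log2 0.18, from -0.39 to 0.74), Cx3cl1 (log2 0.02, from -0.50 to 0.53) and Cxcl1 (log2 0.42, from -1.03 to 1.87) had intervals across 0 as well.

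**Figure D4:**
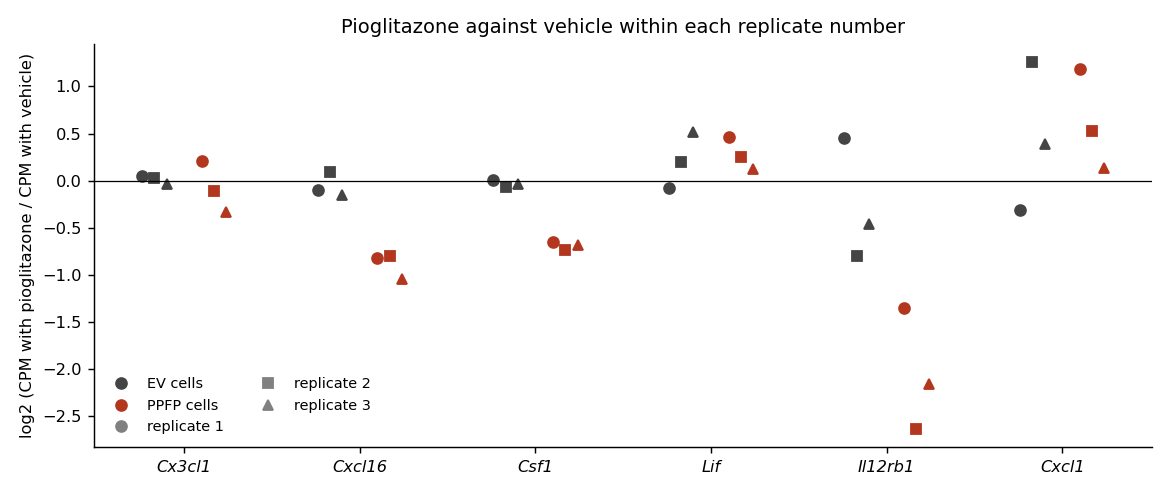
Log2 ratio of CPM with pioglitazone to CPM with vehicle (y axis) for libraries of the same replicate number, for EV cells (black) and PPFP cells (red). For Cxcl16, Csf1 and Il12rb1 each of the 3 PPFP ratios lies below each of the 3 EV ratios, and the Csf1 ratios of a cell line lie close together.

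Whether PPFP and EV cells responded differently to pioglitazone was asked with an interaction term over all 12 libraries. Cxcl16 passed, with a log2 difference in response of -0.84 ± 0.11 (adjusted p = 0.0022), and it was the only one of the 6 genes to do so, where 2.64% of all 10482 genes passed. Csf1 (-0.67 ± 0.21, 95% interval from -1.14 to -0.20, adjusted p = 0.15) and Il12rb1 (-1.94 ± 0.51, from -3.07 to -0.81, adjusted p = 0.079) did not pass after adjustment. The remaining intervals, for Lif (-0.59 to 0.75), Cx3cl1 (-0.73 to 0.56) and Cxcl1 (-1.56 to 1.80), included 0.

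The replicate numbers paired the libraries within a cell line, although numbers 2 and 3 of PPFP cells were not told apart. The interaction was therefore also fitted with the replicate number as a block within each cell line. All of Cxcl16 (log2 -0.84, adjusted p = 3.2e-11), Csf1 (log2 -0.67, adjusted p = 1.0e-06) and Il12rb1 (log2 -1.93, adjusted p = 0.0020) passed in that fit, in which 3594 genes passed in place of 277. By replicate number, the log2 ratios of Csf1 were 0.00, -0.06 and -0.03 in EV cells and -0.65, -0.74 and -0.68 in PPFP cells. Those of Il12rb1 were 0.46, -0.80 and -0.46 in EV cells and -1.35, -2.63 and -2.16 in PPFP cells. Without the block, Il12rb1 passed with DESeq2 (adjusted p = 0.020) or without replicate 2 of the EV cells with pioglitazone (log2 -2.24, adjusted p = 0.023), and Csf1 passed without replicate 3 of that group (log2 -0.81, adjusted p = 0.049).

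When both cell lines had received pioglitazone, PPFP cells were lower than EV cells in Cxcl16 and Cx3cl1 and higher in Lif. Of the 6 genes tested, 1 was higher and 2 lower, where 26.3% of all 10291 genes were higher and 26.4% lower, and Lif alone had a fold change above 2, which 19.7% of all genes had. Cxcl16 was at 31.1 to 35.8 CPM in PPFP cells and at 62.3 to 67.9 CPM in EV cells, without overlap (log2 -0.93 ± 0.082, adjusted p = 0.00010). Lif was at 7.14 to 8.65 CPM in PPFP cells and at 3.19 to 3.75 CPM in EV cells, also without overlap (log2 1.23 ± 0.15, adjusted p = 0.00048).

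Cx3cl1 was at 41.5 to 64.9 CPM in PPFP cells and at 67.3 to 107 CPM in EV cells. The groups did not overlap (log2 -0.70 ± 0.21, adjusted p = 0.025), but the adjusted p was between 0.066 and 0.071 when replicate 1 or 2 of the EV cells or replicate 2 or 3 of the PPFP cells was left out. Csf1, which was higher in PPFP cells without pioglitazone, had a log2 difference of -0.03 with it (95% interval from -0.36 to 0.29). Il12rb1, also higher without pioglitazone, had a log2 difference of -0.79 with it (from -1.76 to 0.19), which passed without replicate 2 of the EV cells (log2 -1.09, adjusted p = 0.030) and was smaller without their replicate 1 (log2 -0.35, adjusted p = 0.49). The comparisons of the lines without pioglitazone and of pioglitazone in PPFP cells share the libraries of PPFP cells without pioglitazone, so their values for a gene are not independent.

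By level, the 4 groups thus took 3 kinds of order. Cxcl16 had means of 67.3 ± 3.01 CPM (SD, n = 3) in EV cells without and 64.8 ± 2.84 CPM with pioglitazone, 61.8 ± 3.44 CPM in PPFP cells without and 33.4 ± 2.39 CPM with it, and only the last was separate from its neighbour. Csf1 and Il12rb1 were highest in PPFP cells without pioglitazone (68.4 ± 0.75 and 2.23 ± 0.63 CPM), and neither EV cells with versus without pioglitazone nor PPFP versus EV cells with pioglitazone passed for them with all libraries in the fit. Lif (6.63 ± 1.26 without and 7.96 ± 0.76 CPM with pioglitazone) was higher and Cx3cl1 (53.7 ± 2.10 and 51.7 ± 11.9 CPM) lower in PPFP cells whether or not pioglitazone was present.

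The genes whose log2 CPM followed each responding gene most closely over the 12 libraries were sought among 9633 genes with a mean of at least 1 CPM. These correlations are descriptions over libraries that share 4 groups. For Cxcl16 they were Prelp, an extracellular matrix proteoglycan (Pearson r = 0.982), and Rnase4, a secreted ribonuclease (r = 0.980). For Csf1 they were the class II histocompatibility genes RT1-Da (r = 0.962) and RT1-Ba (r = 0.958). For Il12rb1 they were Cubn, the endocytic receptor cubilin (r = 0.934), and Slc3a1, a subunit of an amino acid transporter (r = 0.914).

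Some receptors of these ligands were at the floor and others were expressed by the thyrocytes. Of 24 receptor and partner names listed, some of them an older and a newer name of the same gene, 16 were in the table. Of these, 9 had at most 3 counts in each of the 12 libraries, among them Ccr2, Ccr6, Cxcr2, Cxcr6, Cx3cr1 and Csf1r. Il18r1, a receptor chain for Il18, was at 16.3 to 29.4 CPM over the 12 libraries. The secreted Il18 inhibitor Il18bp had group means of 6.50 to 9.93 CPM. The atypical chemokine receptor Cxcr7, also listed, had group means of 341 to 461 CPM, but it is a receptor of Cxcl11 and Cxcl12 and of none of the 10 genes. The receptor chains of the Il6 family were also present, at 4.22 to 8.11 CPM for Il6r, 13.7 to 20.4 CPM for Lifr and 196 to 259.7 CPM for Il6st as group means. Lifr, a receptor chain for Lif and for other cytokines of the Il6 family, was higher in PPFP cells without pioglitazone (log2 0.59 ± 0.20, adjusted p = 0.042). Il6r was lower (log2 -0.81 ± 0.23, adjusted p = 0.023), which made 1 of 7 tested in each direction, near the 22.0% and 23.1% of all genes. With pioglitazone in PPFP cells, Il6st alone of 7 tested genes changed in the unpaired fit (log2 0.22 ± 0.045, adjusted p = 0.021), where 7.63% of all genes rose and 7.13% fell. With the replicate block 3 rose and 2 fell, where 27.7% and 23.9% of all genes did. The partner chain of Il12rb1 for interleukin 12, Il12rb2, had 2 to 20 counts per library, the interleukin 12 subunits Il12a and Il12b were at the floor, and Stat4, which transmits that signal, had at most 1 count. Il23a, which pairs with Il12b to form interleukin 23, was present at 1.27 to 1.58 CPM as group means.

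Of 18 listed genes of maturation and release, 14 were in the table and all 14 were tested. Without pioglitazone 7 were higher and 2 lower in PPFP cells, where 22.0% of all genes were higher and 23.1% lower, and the median log2 difference was 0.52, against 0.00 over all genes. Adam10, which sheds Cxcl16 and Cx3cl1, was at 398 to 420 CPM in PPFP and 233 to 284 CPM in EV cells (log2 0.69 ± 0.10, adjusted p = 0.0011). Casp1, which matures Il18, was 3.98-fold higher (log2 1.99 ± 0.14, adjusted p = 3.6e-05), Rhbdf1, a partner of Adam17, was higher (log2 0.60 ± 0.077) and Sdc4, a heparan sulfate proteoglycan, was lower (log2 -0.98 ± 0.11). With pioglitazone in PPFP cells 2 rose and 2 fell, where 7.63% of all genes rose and 7.13% fell, and 4 and 7 with the replicate block, beside 27.7% and 23.9%. Pycard, the inflammasome adaptor of Casp1, fell 2.40-fold, from 3.12 ± 0.34 to 1.29 ± 0.18 CPM (log2 -1.27 ± 0.18, adjusted p = 0.0062), Gsdmd fell (log2 -0.51 ± 0.13), Rhbdf1 rose further (log2 0.52 ± 0.057) and Ext1 rose (log2 0.29 ± 0.067). The responses of Pycard (log2 -1.23 ± 0.28, adjusted p = 0.043) and Rhbdf1 (log2 0.51 ± 0.089, adjusted p = 0.012) differed from those in EV cells.

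Among 32 other chemokine ligands, 30 were in the table, and 20 of these were at the floor in all 12 libraries. Of the 5 tested, none passed between PPFP and EV cells without pioglitazone, where 22.0% of all genes were higher and 23.1% lower. Cxcl10, the interferon-induced ligand of Cxcr3, fell with pioglitazone in PPFP cells, from a mean of 4.06 ± 0.78 CPM to 2.15 ± 0.15 CPM (log2 -0.91 ± 0.17, adjusted p = 0.017). The other 3 tested there did not pass in the unpaired fit, where 7.63% of all genes rose and 7.13% fell, and 2 of the 4 fell with the replicate block, beside 23.9% of all genes. The EV cells were at 5.95 ± 1.08 CPM without and 6.23 ± 1.53 CPM with pioglitazone, and the difference in response did not pass (log2 -0.99 ± 0.31, adjusted p = 0.14).

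Of 58 other cytokines, 50 were in the table and 24 of these, including Il1a, Il1b, Tnf and Ifng, were at the floor in all 12 libraries. Of 17 tested between the cell lines without pioglitazone, 8 were higher and 3 lower in PPFP cells, where 22.0% and 23.1% of all genes were, and the median log2 difference was 0.43 against 0.00 over all genes. Il34, the other ligand of Csf1r besides Csf1, was at 0.248 ± 0.073 CPM in EV and 7.95 ± 0.51 CPM in PPFP cells (log2 5.00 ± 0.23, adjusted p = 7.3e-06). Csf3, the granulocyte colony-stimulating factor, was at 0.304 ± 0.092 CPM in EV and 12.7 ± 0.97 CPM in PPFP cells (log2 5.39 ± 0.22, adjusted p = 4.6e-06). Kitlg, the ligand of Kit, was 9.05-fold higher (log2 3.18 ± 0.15, adjusted p = 6.8e-06), and Tnfsf12 was lower (log2 -2.58 ± 0.17, adjusted p = 2.5e-05).

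With pioglitazone in PPFP cells 3 of 16 tested cytokines rose and 2 fell, where 7.63% and 7.13% of all genes did, and 3 and 4 with the replicate block, beside 27.7% and 23.9%. Il34 rose to 13.3 ± 0.66 CPM (log2 0.75 ± 0.093, adjusted p = 0.0041) while Csf1 fell, so the pair of Csf1r ligands moved in opposite directions in the same libraries. Its response differed from that of the EV cells (log2 1.70 ± 0.31, adjusted p = 0.035), where its counts were 3 to 9 per library. Tnfsf10, the death ligand TRAIL, fell from 4.13 ± 0.38 to 1.96 ± 0.46 CPM (log2 -1.07 ± 0.19, adjusted p = 0.013), with a difference in response of log2 -1.78 ± 0.38 (adjusted p = 0.033). In EV cells Tnfsf10 had means of 0.653 CPM without and 1.07 CPM with pioglitazone, from 15 to 39 counts per library. The higher mean with pioglitazone there is part of that difference. Kitlg rose slightly (log2 0.25 ± 0.058, adjusted p = 0.037).

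**Figure D5:**
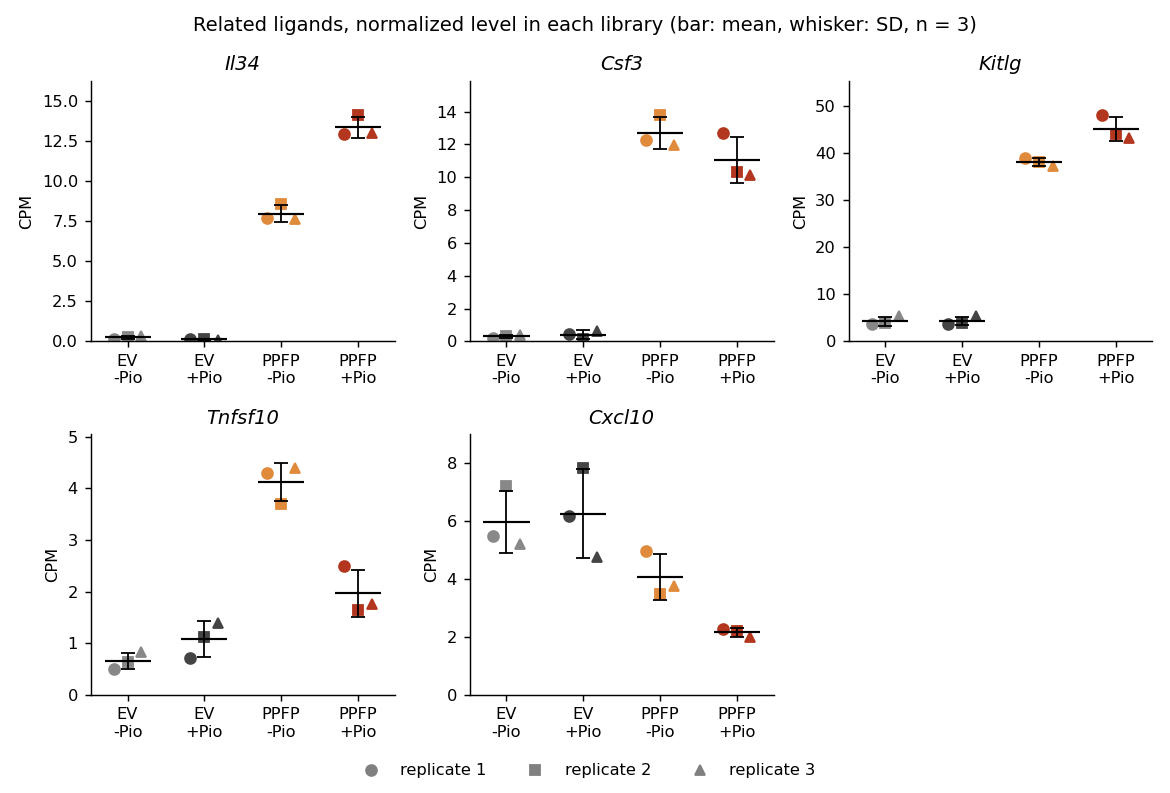
CPM (y axis, from 0) of 5 related ligands, with 1 point per library, a bar at the mean and whiskers for the SD (n = 3). Il34, Csf3 and Kitlg are near 0 or low in EV cells and high in PPFP cells, and Tnfsf10 and Cxcl10 are lower with than without pioglitazone in PPFP cells.

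In the NF-kB list, of 22 genes tested between the cell lines without pioglitazone, 6 were higher and 6 lower in PPFP cells, near the 22.0% and 23.1% of all genes (median log2 -0.17, against 0.00 over all genes). Nfkbia, the inhibitor that NF-kB itself induces, was higher (log2 1.34 ± 0.091, adjusted p = 3.1e-05), as were the inhibitory partner Tnip1 (log2 0.66 ± 0.082), the kinase Map3k14 (log2 0.77 ± 0.096) and the nuclear regulator Nfkbiz (log2 1.56 ± 0.22). These had the smallest adjusted p of the list. By group mean other genes were lower in PPFP than in EV cells, among them Nfkb2 (53.7 against 80.7 CPM), Rela (92.4 against 117 CPM) and Icam1 (86.5 against 136 CPM). With pioglitazone in PPFP cells 3 of 22 rose and 3 fell, where 7.63% and 7.13% of all genes did (median log2 0.00, against 0.01). With the replicate block 6 rose and 6 fell, beside 27.7% and 23.9%. Vcam1, an adhesion molecule, rose (log2 1.49 ± 0.27, adjusted p = 0.015), as did Cebpb (log2 0.93 ± 0.093, adjusted p = 0.0019), while Icam1 (log2 -0.28 ± 0.052, adjusted p = 0.016) and Irf1 (log2 -0.36 ± 0.065, adjusted p = 0.015) fell.

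In the JAK-STAT list, 3 of 17 genes tested were higher and 5 lower in PPFP cells without pioglitazone, near the 22.0% and 23.1% of all genes (median log2 0.02). Ptpn6, a phosphatase that limits cytokine receptors, was higher (log2 1.08 ± 0.10), while Cish, a feedback inhibitor induced by Stat5 (log2 -1.46 ± 0.17), and the kinase Jak1 (log2 -0.37 ± 0.072) were lower. With pioglitazone in PPFP cells 2 of 17 rose and 4 fell, where 7.63% and 7.13% of all genes did (median log2 -0.12), among them Jak2, a kinase of the interleukin 12 receptor (log2 -0.56 ± 0.11, adjusted p = 0.022), Socs2 (log2 -0.59 ± 0.12) and Pias3 (log2 -0.32 ± 0.064), while Bcl6 rose (log2 0.76 ± 0.15). With the replicate block 4 rose and 9 fell, beside 27.7% and 23.9% of all genes. Of 14 genes of cytokine mRNA decay, 3 were higher and 4 lower in PPFP cells without pioglitazone, also beside 22.0% and 23.1% of all genes (median log2 -0.03), with Cnot1 (log2 0.40 ± 0.081) and Cnot8 (log2 0.27 ± 0.068) higher and Rc3h2 lower (log2 -0.43 ± 0.10). Zfp36l2, which binds AU-rich mRNA, was lower in PPFP cells (log2 -0.96 ± 0.14, adjusted p = 0.0013). It was the single gene of these 14 to change with pioglitazone in them in the unpaired fit, rising by log2 0.49 ± 0.069 (adjusted p = 0.0062), where 7.63% of all genes rose and 7.13% fell. In the blocked fit 4 of the 14 rose and 3 fell, near the 27.7% and 23.9% of all genes. None of the genes of the 7 lists passed with pioglitazone in EV cells.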

How the data were processed

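The authors aligned paired-end reads to rn4 with TopHat2 2.0.11 and counted reads per gene with HTSeq 0.6.1p1, and the deposited table holds raw counts. The library kit does not mark strand, so antisense reads cannot be told apart. After filterByExpr and TMM scaling of these counts, the quasi-likelihood test of edgeR 4.0.16 in R 4.3.3 was run on the 6 libraries compared or, for the interaction, on all 12, with Benjamini-Hochberg adjustment over all genes tested. All adjusted p-values are from this test unless another is named, and genes passed at an adjusted p under 0.05. DESeq2 1.42.0 was an alternative. The method was tested on simulated data with independent libraries, which did not hold the pairing by replicate number. Figures used matplotlib 3.10.9.

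The genes and lists were chosen with earlier results of these data known. Related genes were named by the up to 4 smallest adjusted p-values per list and comparison among those that passed, between the lines without pioglitazone and for pioglitazone in PPFP cells, along with receptors and partners of the 10 genes. A pair of genes selected by this rule is not reported here. Deviations of same-numbered libraries from their group means correlated at 0.839, 0.612 and 0.568 between treatments in PPFP cells and at 0.644, 0.825 and 0.870 in EV cells, so the numbers paired these libraries. In PPFP cells numbers 2 and 3 were not told apart. Vehicle library 2 correlated at 0.685 with treated library 3, and vehicle library 3 at 0.487 with treated library 2. Between cell lines they correlated at -0.278, 0.408 and -0.397 without and at -0.266, 0.320 and -0.469 with pioglitazone and did not. The ChIP-seq peaks, on rn4, were not used here.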

Additional observations from a re-analysis of the deposited data

Results flagged for a closer look

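The pioglitazone response of Cxcl16 differed between the cell lines, with a log2 interaction of -0.84 (adjusted p = 0.0022, edgeR quasi-likelihood test), and all 3 PPFP pairs fell while the EV pairs lay on either side of 0. With the replicate number as a block within each cell line it was also -0.84. In that blocked fit the responses of Csf1 (log2 -0.67, adjusted p = 1.0e-06) and Il12rb1 (log2 -1.93, adjusted p = 0.0020) differed as well, while without the block their adjusted p was 0.15 and 0.079 with all libraries in the fit. Groups of 3 libraries were too small to be searched for outlying samples.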

How the results depend on the processing

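Of 450 values of the 6 tested genes under the alternatives, 436 kept their direction or lay on the same side of the threshold, 7 lost it, 7 gained it and 0 turned direction past it. The alternatives were another scaling, filter or tool, all 12 libraries in 1 fit, the replicate block and each library left out. For pioglitazone in PPFP cells the replicate block called 5198 genes in place of 1486, leaving out a library 632 to 1729, and the added alternative with replicates 2 and 3 of the treated PPFP cells as 1 library 709. In EV cells the block called 1 gene and leaving out a library 0. For the interaction DESeq2 called 601 genes and 2 of the 6 genes, the block within each cell line 3594 and 3, leaving out a library 124 to 308 and 1 to 2, and the added alternative 150 genes. With that alternative the Cx3cl1 difference with pioglitazone also missed the threshold (log2 -0.64, adjusted p = 0.069). Besides the calls of the interaction, the replicate block changed only that of Lif with pioglitazone in PPFP cells, which passed with it. The cause of these shifts was not tested. Peaks near the genes, planned where rn4 gene starts were at hand, were not run. Depth limits Ccl2, Ccl20, Cxcl1, Il6 and Il18, and Il12rb1 rests on 12 to 75 counts per library.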
